A study of Mus musculus with 8 samples.

Results

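The 10 genes described here encode the core enzymes that turn arachidonic acid into prostaglandins and leukotrienes, and they were taken by symbol from the 18901 genes of the deposited table. They are Ptgs1, Ptgs2, Ptges, Ptgds, Alox5, Alox5ap, Alox15, Alox12, Ltc4s and Lta4h, and all 10 were in the table. RNA was sequenced from the cheek skin of 8 female mice, aged 7 weeks, each of which gave 1 library and had received an intradermal injection of 10 µg BNP, B-type natriuretic peptide, which evokes scratching. The 4 TBX20fl/fl;K14-Cre mice, the conditional knockouts (cKO), lacked exons 2 and 3 of Tbx20, a T-box transcription factor, in cells in which the keratin 14 promoter had driven Cre, that is keratinocytes and other epithelial cells of the skin. Their 4 TBX20fl/fl littermates, the controls, carried the same floxed allele without Cre. Behaviour was recorded for 30 min and the skin was taken 5 h later, so every library came from injected skin, and no vehicle-injected skin was analysed here. The question put to the data was whether transcripts of the eicosanoid-forming enzymes differed between the genotypes in whole injected skin. Since whole tissue was sequenced, fewer cells of a type and less RNA per cell cannot be told apart in any value below.

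Eicosanoids are short-lived lipid signals made on demand. A phospholipase frees arachidonic acid from the membrane, and cyclooxygenases and lipoxygenases then compete for it. The cyclooxygenases, encoded by Ptgs1 and Ptgs2, make prostaglandin H2, which terminal synthases turn into PGE2, PGD2 and other prostanoids, while the lipoxygenases make leukotrienes and hydroxylated fatty acids. In skin, PGE2 is a mediator of vasodilation and sensitisation of sensory neurones, and leukotriene B4 is a strong attractant of neutrophils and is known to evoke scratching in mice.

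The summed estimated counts ranged from 19260856 to 19880654 in cKO mice and from 16056282 to 19617762 in controls, so 3 counts corresponded to 0.151 to 0.187 CPM (counts scaled to the library total), and values near that floor carry counting error of their own. TBX20fl/fl replicate 2 stood apart from the rest. Its TMM scaling factor was 0.735 against 1.01 to 1.07 in the other mice, its median Spearman correlation with the other libraries was 0.919 against 0.974 to 0.990, and its shorter transcripts read high. For that reason many results are also given without this mouse or with the trend along transcript length removed. Tbx20 itself gave 0 to 2 counts in cKO mice and 0 to 3 in controls, too few to check the genotype. All 6 keratinocyte markers were detected, with a summed FPKM (fragments scaled to transcript length and library total) of 3321 to 4309 and 2898 to 4339, as the label skin implies.

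The promoters of the cyclooxygenases and of the inducible PGE synthase are shown first, because these genes act in sequence in making PGE2 and Ptgs2 had the largest fold change of the members, though it did not pass the test. RefSeq sequences of GRCm38.p6 were available for 8 of the 10 members, not for Alox5ap and Alox15. Each window runs 5′ to 3′ on the gene's own strand, 300 bases in all, around an annotated start of the gene. For Ptgs1 and Ptges that start lay well inside the gene span given below, so other starts of these genes were not searched. Ptgs1 lies at chr2:36230176-36230475 on the plus strand, Ptgs2 at chr1:150099781-150100080 on the plus strand and Ptges at chr2:30903248-30903547 on the minus strand. Capitals mark matches to the 5 motifs searched on both strands, namely the promoter element TATAAA, the cyclic AMP motif CGTCA, the E-box CACGTG, the T-box factor motif GGTGTGA, and the C/EBP motif TTGCNNAA.
Ptgs1 promoter: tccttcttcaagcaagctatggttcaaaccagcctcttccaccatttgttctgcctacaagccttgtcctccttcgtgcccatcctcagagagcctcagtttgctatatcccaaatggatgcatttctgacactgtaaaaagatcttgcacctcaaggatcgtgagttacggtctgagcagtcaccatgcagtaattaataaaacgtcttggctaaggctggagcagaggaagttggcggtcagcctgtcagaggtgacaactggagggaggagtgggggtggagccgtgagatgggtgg
Ptgs2 promoter: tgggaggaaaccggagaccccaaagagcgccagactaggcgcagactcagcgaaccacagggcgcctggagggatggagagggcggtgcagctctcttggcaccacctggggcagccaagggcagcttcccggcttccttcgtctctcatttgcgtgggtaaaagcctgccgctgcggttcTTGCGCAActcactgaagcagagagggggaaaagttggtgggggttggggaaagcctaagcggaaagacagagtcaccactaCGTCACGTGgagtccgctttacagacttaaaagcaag
Ptges promoter: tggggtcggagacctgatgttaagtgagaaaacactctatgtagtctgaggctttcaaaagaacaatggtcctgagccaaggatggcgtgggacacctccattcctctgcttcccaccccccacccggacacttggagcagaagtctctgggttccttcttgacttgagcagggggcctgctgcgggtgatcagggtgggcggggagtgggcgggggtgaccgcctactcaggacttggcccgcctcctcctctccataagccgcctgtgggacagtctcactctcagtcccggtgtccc
Of the 3 windows, that of Ptgs2 alone held matches. TTGCNNAA lay at bases -69 to -62 from the start, and CGTCA at 14 to 18 overlapped CACGTG at 17 to 22. Among all 32851 promoters of the same length, 10.8% held TTGCNNAA, 20.8% CGTCA and 7.15% CACGTG. The T-box factor motif, held by 3.98% of promoters, was matched among the 8 members in the window of Ptgds alone, at -95 to -89 as its reverse complement, and the motif TATAAA, held by 13.6%, in none. The study gives AGGTGTG as the TBX20 motif. It was not among the motifs searched, so these matches and shares do not cover it. A match says only that these letters are present, and the motifs were chosen after the values of the genes were known.

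The members spanned a wide range of levels per transcript length. Alox5ap, the protein that presents arachidonic acid to 5-lipoxygenase, was the most abundant, with a median of 51.8 FPKM over the 8 mice and a range of 36.2 to 72.9 that met no other member's. Lta4h, the leukotriene A4 hydrolase, followed at 26.4 and Ptgs1 at 24.7 FPKM, and these neighbours were not separated, since Lta4h was the higher in 5 of 8 mice. Ptges came next at 14.2 FPKM, below Ptgs1 in 8 of 8 mice and above Alox5 in 8 of 8. Alox5, Alox15 and Ltc4s had overlapping medians of 7.03, 5.92 and 5.48 FPKM. Alox12, Ptgs2 and Ptgds were the lowest, at 2.30, 1.90 and 1.84 FPKM, and again overlapped one another. The constitutive cyclooxygenase Ptgs1 was thus above the inducible Ptgs2 in every mouse of both genotypes.

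**Figure D1:**
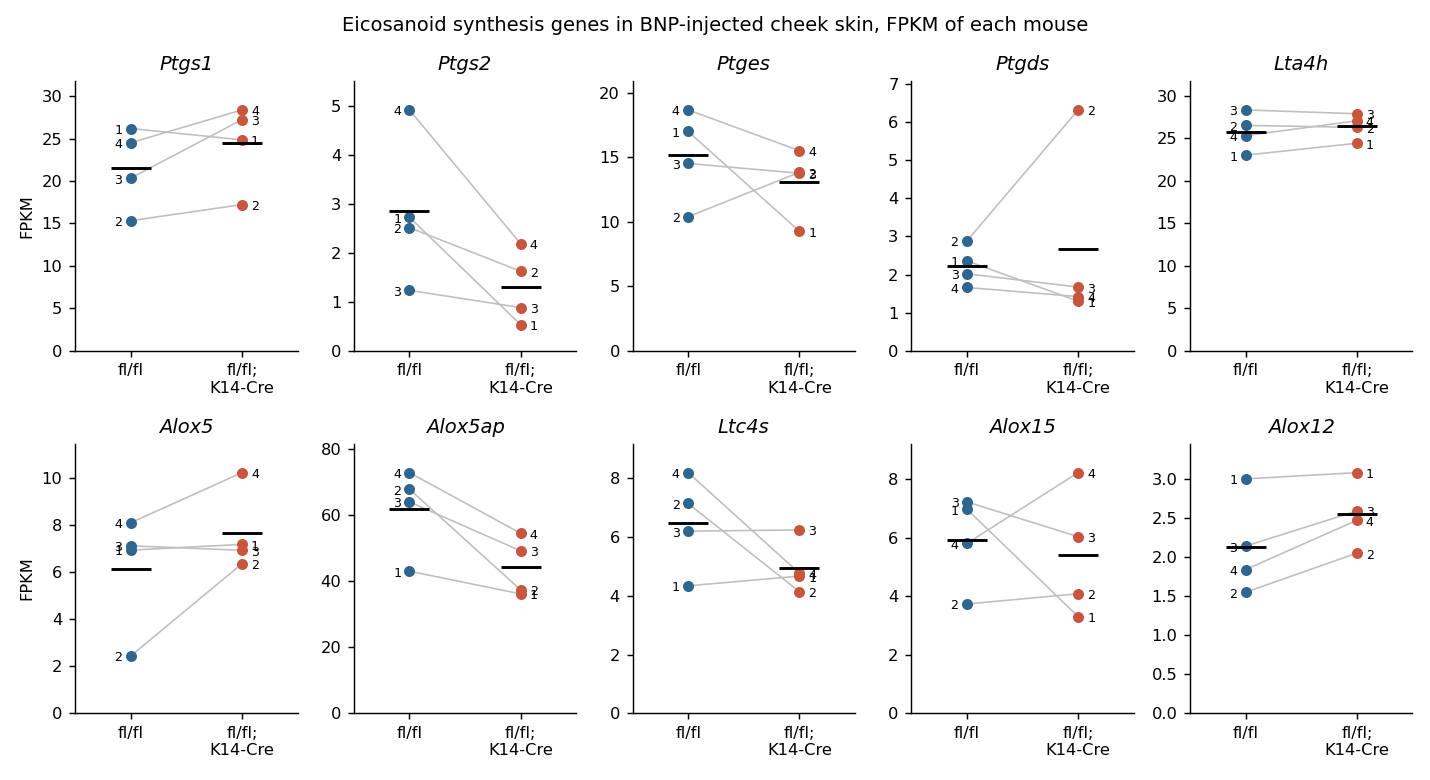
FPKM of each of the 10 genes (vertical axis, linear, from 0 in each panel) in the 4 TBX20fl/fl;K14-Cre and 4 TBX20fl/fl mice, where each numbered point is a mouse, grey lines join mice of the same number and a black bar marks the group mean. The points of the genotypes overlap for all 10 genes, and Ptgds in TBX20fl/fl;K14-Cre replicate 2, at 6.32, lies apart from its group.

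Between the genotypes, no member passed the edgeR quasi-likelihood test after Benjamini-Hochberg adjustment over the 17124 genes tested. All 10 members were among the genes tested. The same test called 0 genes in all, which is 0.0% of those tested, with a smallest adjusted p of 0.498, and DESeq2 called 10 genes, none of them a member. At an unadjusted edgeR p under 0.05 there were 1431 genes, or 8.36% of those tested, and 2 of the 10 members, Ptgs2 and Alox5ap. Both were lower in cKO mice, the direction of 1012 of those genes, or 5.91% of the genes tested. Neither in CPM nor in FPKM did the groups separate without overlap for any member, as they did for 6.92% and 7.05% of all genes. The log2 fold change, cKO over TBX20fl/fl, was below 0 for 6 of 10 members against 47.5% of all genes. Its median was -0.20 over the members and 0.026 over all genes tested, and the members' median moved to -0.029 once the trend with transcript length was removed.

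Ptgs2 encodes cyclooxygenase-2, the inducible enzyme of inflammation and pain (gene 19225; chromosome 1, 150100031 to 150108234, plus strand, GRCm38). cKO replicates 1 to 4 had 0.53, 1.62, 0.88 and 2.18 FPKM. TBX20fl/fl replicates 1 to 4 had 2.72, 2.51, 1.23 and 4.91 FPKM. The groups overlapped because of a single control, TBX20fl/fl replicate 3, which lay below cKO replicates 2 and 4. The estimated counts behind these values were 45 to 191 and 103 to 414. Group means were 1.30 ± 0.741 and 2.84 ± 1.53 FPKM (SD, n = 4 each, two-sided exact permutation p = 0.114, where 0.0286 is the smallest that 4 against 4 allow).

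In counts scaled by TMM the Ptgs2 log2 fold change was -1.29 ± 0.487 (± SE, as for all log2 fold changes), with an edgeR adjusted p of 0.498. Ptgs2 ranked 631 of 17124 genes by p-value. It was the largest of the 10 members' fold changes in size. In CPM, Ptgs2, Ptges and Alox5ap were lower in 4 of 4 same-numbered pairs of mice, as 14.3% of the genes tested were. Blocking on the replicate number gave -1.32 (edgeR, adjusted p = 0.405), and in that fit Ptgs2 and Alox5ap were again the 2 members at an unadjusted p under 0.05, as 10.1% of all genes were. Without TBX20fl/fl replicate 2 it was -1.22 (edgeR, adjusted p = 0.638), and with the length trend removed it was -1.57 (edgeR, adjusted p = 0.535). The direction therefore did not rest on the library that stood apart. Without cKO replicate 1, cKO replicate 3 or TBX20fl/fl replicate 4 the log2 fold change was -1.04, -1.14 or -0.98, no longer at an unadjusted p under 0.05.

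Ptgs1 encodes cyclooxygenase-1, the constitutive enzyme of platelets and most tissues (gene 19224; chromosome 2, 36216742 to 36258593, plus strand). Its FPKM was 24.9, 17.2, 27.3 and 28.4 in cKO mice and 26.2, 15.3, 20.4 and 24.5 in controls. The groups overlapped over most of their range, and replicate 2 was the lowest in both. Its log2 fold change was 0.046 ± 0.182 (edgeR, adjusted p = 0.894), and it was -0.050 with the length trend removed, so no direction is given. Of the sequence of its transcripts, 2.63% of 50-base stretches were shared with Gm43621, which overlaps it on the opposite strand. The ratio of Ptgs2 to Ptgs1 was 0.0213, 0.0940, 0.0323 and 0.0768 in cKO mice. In TBX20fl/fl mice it was 0.104, 0.164, 0.0604 and 0.20. These ratios of FPKM were lower in cKO mice in 4 of 4 pairs (log2 difference -1.34), yet the groups overlapped (exact permutation p = 0.114, 0.229 after adjustment over the 4 ratios compared). The 4 ratios were chosen after the values were seen.

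Ptges encodes microsomal PGE synthase-1, which works with cyclooxygenase-2 to make PGE2 (gene 64292; chromosome 2, 30889471 to 30931020, minus strand). FPKM was 9.26, 13.8, 13.8 and 15.5 in cKO mice and 17.0, 10.4, 14.5 and 18.7 in controls. TBX20fl/fl replicates 2 and 3 lay below cKO replicate 4, and the groups overlapped. In TMM-scaled counts the values were 32.0, 46.5, 46.1 and 51.5 CPM against 59.0, 50.4, 51.6 and 64.0 CPM. On that scale cKO replicate 4 exceeded TBX20fl/fl replicate 2 and lay just below replicate 3, and all other mice separated by genotype. The log2 fold change was -0.35 ± 0.174 (edgeR, adjusted p = 0.498), lower in 4 of 4 pairs in CPM. It was -0.50 with the length trend removed (edgeR, adjusted p = 0.535) and -0.40 without TBX20fl/fl replicate 2, the latter at an unadjusted p under 0.05. Without cKO replicate 1 it shrank to -0.23. Ptgs2 and Ptges have the longest transcripts of the 10, at 4407 and 3571 bases, and they were the members at an unadjusted edgeR p under 0.05 when the trend was removed, where 8.64% of all genes were. Ptges3, the cytosolic PGE synthase and a co-chaperone, was more abundant, at 79.3 to 99.7 and 82.1 to 118 FPKM. The ratio of Ptges to Ptges3 differed by -0.047 on the log2 scale (exact permutation p = 0.886, 0.886 adjusted over 4 ratios), and -0.31 without TBX20fl/fl replicate 2.

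Ptgds encodes the lipocalin-type PGD synthase (gene 19215; chromosome 2, RefSeq 25466709 to 25470110, minus strand), and the sign of its difference depended on which mouse was left out and on the fit. Its FPKM was 1.30, 6.32, 1.67 and 1.42 in cKO mice, from 21 to 95 counts. In TBX20fl/fl mice it was 2.36, 2.88, 2.02 and 1.66, from 25 to 37 counts. The cKO replicate 2 was above every other mouse, and the remaining 3 were near or below the lowest control. Its log2 fold change was 0.058 ± 0.533 with all mice (edgeR, adjusted p = 0.958) and -0.75 without that mouse. It was 0.54 with the length trend removed, -0.16 with the replicate block and 0.34 with both, so no direction is given. The other PGD synthase, Hpgds, which mast cells, macrophages and some T cells express, had 11.8, 10.3, 12.3 and 14.6 FPKM against 15.5, 13.2, 15.5 and 22.6 FPKM. Of the cKO mice, replicate 4 alone was above the lowest control. Its log2 fold change was -0.61 ± 0.171 (edgeR, adjusted p = 0.498), and -0.73 with the length trend removed.

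**Figure D2:**
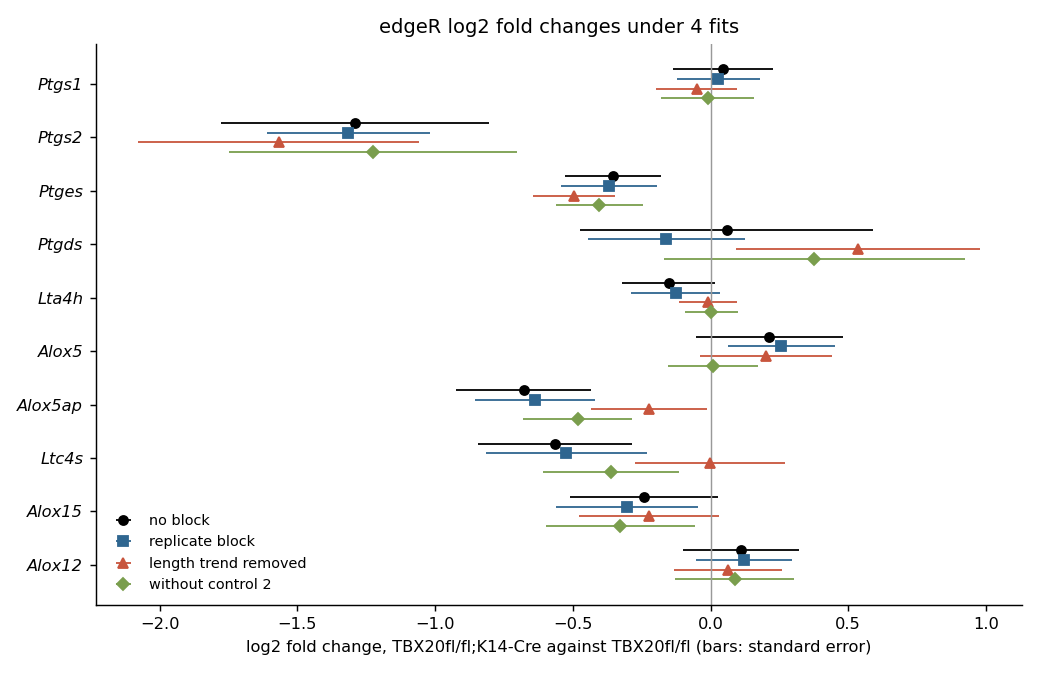
Log2 fold change (horizontal axis, TBX20fl/fl;K14-Cre over TBX20fl/fl) of the 10 genes from 4 edgeR fits, namely of all 8 mice, with the replicate block, with the length trend removed, and without TBX20fl/fl replicate 2 (control 2), with lines for the SE. Ptgs2 stays between -1.57 and -1.22 in the 4 fits, while Alox5ap goes from -0.68 to -0.22 and Ltc4s from -0.57 to -0.0030 when the trend is removed.

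Alox5ap encodes FLAP, without which cells make hardly any leukotriene (gene 11690; chromosome 5, 149265004 to 149288153, plus strand). Its FPKM was 36.2, 37.4, 49.2 and 54.5 in cKO mice. In TBX20fl/fl mice it was 43.0, 67.8, 64.0 and 72.9. Of the controls, 3 were above all cKO mice and replicate 1 was not. Group means were 44.3 ± 8.99 and 61.9 ± 13.1 FPKM (SD, n = 4 each, exact permutation p = 0.0857). In TMM-scaled counts the log2 fold change was -0.68 ± 0.245 (edgeR, adjusted p = 0.498), which ranked 505 of 17124 genes by p-value, and Alox5ap was lower in 4 of 4 pairs. It was -0.48 without TBX20fl/fl replicate 2, still at an unadjusted p under 0.05. Without cKO replicate 1 or cKO replicate 2 it was -0.60, in both cases no longer at an unadjusted p under 0.05. With the length trend removed it was -0.22 ± 0.211 (edgeR, adjusted p = 0.646), so the size of this difference moved with transcript length. Gm19719 overlaps Alox5ap on the opposite strand and shares 6.80% of its 50-base stretches. Whether counting used strand is not stated in the sources used here, so reads from the overlap cannot be told apart.

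Ltc4s encodes leukotriene C4 synthase, the enzyme of mast cells, eosinophils and macrophages that begins the cysteinyl leukotrienes (gene 17001; chromosome 11, 50236461 to 50238532, minus strand). FPKM was 4.67, 4.14, 6.24 and 4.77 in cKO mice and 4.34, 7.14, 6.20 and 8.19 in controls, from 50 to 94 counts. The groups overlapped, with the lowest control below 3 of the 4 cKO mice. For Ltc4s the log2 fold change was -0.57 ± 0.279 (edgeR, adjusted p = 0.498), -0.36 without TBX20fl/fl replicate 2, and -0.0030 with the length trend removed. Ltc4s has the shortest transcript of the 10, at 611 bases. It overlaps the antisense gene Gm26542 and shares 15.2% of its 50-base stretches with other genes, the largest share among the members.

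In TBX20fl/fl replicate 2, the values of the members with short transcripts followed the trend with transcript length, and those of Ptgs2 and Alox5 did not. Against the median of the other 7 mice, that library read Ltc4s higher by 1.10, Alox5ap by 1.00 and Lta4h by 0.55 in log2 CPM. The trend fitted over all genes at those lengths was 1.22, 0.99 and 0.29. At the long end, Ptges deviated by -0.03 and Ptgs1 by -0.31 where the trend gave -0.40 and -0.28. Ptgs2 went against the trend, with a deviation of 1.16 where the trend gave -0.66. Alox5 was far below it, at -1.06 where the trend gave -0.075. Ptgds had the largest deviation, 1.26, close to its trend of 1.10.

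**Figure D3:**
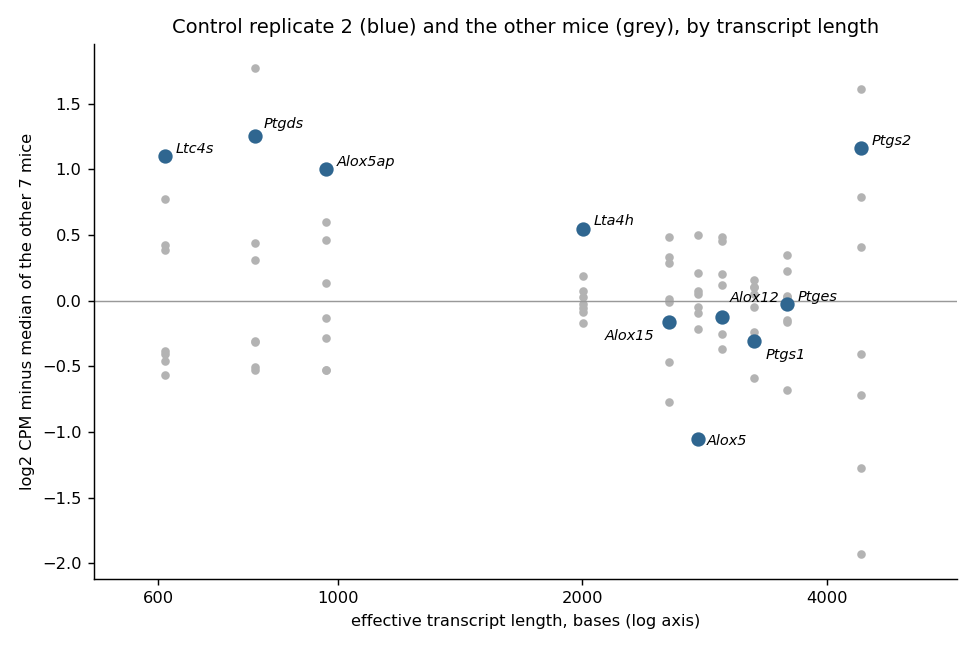
Log2 CPM minus the median of the other 7 mice (vertical axis) against transcript length (horizontal axis, bases, log scale) for TBX20fl/fl replicate 2, in blue, with the other 7 mice in grey, for the 10 genes. Ltc4s and Alox5ap, with short transcripts, lie at 1.10 and 1.00, most of the longer ones lie at or below 0, and Ptgs2, the longest, lies at 1.16.

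The remaining enzymes of the leukotriene branch showed smaller differences. Alox5 encodes 5-lipoxygenase, which makes leukotriene A4 (gene 11689; chromosome 6, 116410071 to 116461178, minus strand). Its FPKM was 7.18, 6.36, 6.93 and 10.2 in cKO mice and 6.94, 2.44, 7.12 and 8.10 in controls. Apart from TBX20fl/fl replicate 2, at 2.44, the values of the genotypes were interleaved. Its log2 fold change was 0.21 ± 0.267 (edgeR, adjusted p = 0.660) and 0.0091 without that mouse. Lta4h, which makes leukotriene B4 (gene 16993; chromosome 10, 93453396 to 93484896, plus strand), had 24.4, 26.3, 27.9 and 27.1 FPKM against 23.0, 26.5, 28.3 and 25.3 FPKM. Its SDs were 1.48 and 2.23 FPKM, and it had a log2 fold change of -0.15 ± 0.169 (edgeR, adjusted p = 0.625) and 0.0032 without TBX20fl/fl replicate 2. The ratio of Alox5ap to Alox5 was 5.03 to 7.10 in cKO mice and 6.20, 27.8, 8.99 and 8.99 in controls. It was lower in 4 of 4 pairs (log2 difference -0.91, exact permutation p = 0.0571, 0.229 after adjustment over 4 ratios), and its highest value belonged to TBX20fl/fl replicate 2, where both genes deviated. Without that mouse the log2 difference was -0.46 (exact permutation p = 0.114).

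Alox15 and Alox12 lie close together on chromosome 11 of GRCm38, at 70344147 to 70390538 and 70241457 to 70255380 in RefSeq, both on the minus strand. Alox15 encodes the leukocyte-type 12/15-lipoxygenase (gene 11687), and Alox12 the platelet-type 12-lipoxygenase (gene 11684), which the epidermis also expresses. Alox15 had 3.31, 4.09, 6.04 and 8.23 FPKM in cKO mice and 6.98, 3.74, 7.23 and 5.81 FPKM in controls. The controls lay inside the range of the cKO mice, and the log2 fold change was -0.24 ± 0.269 (edgeR, adjusted p = 0.622). It was -0.51 without cKO replicate 4 and -0.076 without cKO replicate 1. Alox12 had 3.08, 2.05, 2.59 and 2.47 FPKM against 3.00, 1.55, 2.14 and 1.84 FPKM, which was higher in cKO mice in 4 of 4 pairs. In TMM-scaled counts it was higher in 3 of 4, and no member was higher in 4 of 4, as 16.3% of all genes were. The edgeR fit gave a log2 fold change of 0.11 ± 0.211 (adjusted p = 0.768). The ratio of Alox15 to Alox12 differed by -0.46 on the log2 scale (exact permutation p = 0.257, 0.343 after adjustment), or -0.16 without cKO replicate 1. The deposited table places both genes on an alternate scaffold with mixed coordinates, and for Alox12 0.372% of 50-base stretches were shared with other genes.

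The rest of the pathway was read from 52 further genes, of which 50 were tested and 0 passed after adjustment. Pla2g10 and Oxgr1 had at most 2 counts in any mouse and were not tested. The log2 fold change was below 0 for 32 and above 0 for 18, with a median of -0.11, or -0.058 with the length trend removed, beside 0.026 over all genes. At an unadjusted edgeR p under 0.05, 6 were lower and 1 higher in cKO mice, against 5.91% and 2.45% of all genes. With the replicate block these counts were 5 and 0, since Cysltr1 and Tbxa2r were no longer among them, and without TBX20fl/fl replicate 2 they were 4 and 0.

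Of the phospholipase A2 family, 14 genes were tested, of which 10 had a negative and 4 a positive log2 fold change, with a median of -0.14. Pla2g2f, an epidermal secreted phospholipase, was the most abundant, at 135.0 to 174 FPKM and 118 to 179 FPKM. Pla2g4a, the cytosolic phospholipase that supplies cyclooxygenases, had 17.1 to 18.2 and 16.4 to 20.0 FPKM. Neither was at an unadjusted p under 0.05 (edgeR log2 fold changes of -0.16 ± 0.155 and -0.28 ± 0.178). Without TBX20fl/fl replicate 2 these were -0.15 and -0.097, and with the length trend removed -0.11 and -0.31. Pla2g7, the platelet-activating factor acetylhydrolase, was the phospholipase gene at an unadjusted p under 0.05, with 22.0, 34.0, 37.8 and 32.8 FPKM against 33.0, 45.5, 42.4 and 40.6 FPKM. Its groups overlapped, and its log2 fold change of -0.55 ± 0.235 (edgeR, adjusted p = 0.498) was -0.34 without TBX20fl/fl replicate 2 and -0.37 with the length trend removed, in both cases no longer at an unadjusted p under 0.05.

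Among 12 other synthases, 8 had a negative and 4 a positive log2 fold change, with a median of -0.16 (0.080 with the length trend removed), and Hpgds, given above, was the 1 at an unadjusted p under 0.05. The epidermal lipoxygenases Alox12b, Aloxe3 and Alox12e, the first 2 of which the skin barrier requires, had log2 fold changes of 0.16 ± 0.197, 0.11 ± 0.183 and 0.21 ± 0.235 by edgeR, none past the unadjusted threshold. Without TBX20fl/fl replicate 2 these were 0.059, 0.0097 and 0.13, and with the length trend removed 0.21, 0.062 and 0.27. Of 10 genes of breakdown and transport, 5 were on each side of 0, with a median of -0.037. Hpgd, which inactivates prostaglandins, had 23.8 to 41.2 and 24.5 to 45.6 FPKM. Dpep2, a dipeptidase that turns leukotriene D4 into E4, had 5.29, 4.79, 5.99 and 5.69 FPKM in cKO mice and 7.70, 6.89, 8.52 and 8.33 FPKM in controls. Those groups did not overlap, as those of 7.05% of all genes did not in FPKM. Its log2 fold change was -0.64 ± 0.152 (edgeR, adjusted p = 0.498), and -0.39 with the length trend removed. Cyp4f18, which inactivates leukotriene B4 in mouse neutrophils, had -0.61 ± 0.241 (edgeR, adjusted p = 0.498). It was -0.41 with the length trend removed and -0.53 without TBX20fl/fl replicate 2, in both cases no longer at an unadjusted p under 0.05.

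Among 14 receptor genes tested, 9 had a negative and 5 a positive log2 fold change, with a median of -0.11. The receptors of PGE2 were Ptger3, the most abundant at 13.0 to 20.1 FPKM over the 8 mice, Ptger4, Ptger2 and Ptger1. Their edgeR log2 fold changes were -0.22, 0.11, -0.28 and 0.43, with adjusted p of 0.498, 0.767, 0.643 and 0.567. Without TBX20fl/fl replicate 2 they were -0.24, -0.023, -0.29 and 0.21, so the sign of Ptger4 turned. Ptger3 alone was then at an unadjusted p under 0.05. Fpr2, a formyl peptide receptor of neutrophils that also binds the eicosanoid lipoxin A4, had 2.58, 5.10, 4.28 and 7.05 FPKM in cKO mice and 9.07, 16.1, 7.74 and 11.5 FPKM in controls. The groups did not overlap, as those of 7.05% of all genes did not in FPKM, and the log2 fold change was -1.46 ± 0.389 (edgeR, adjusted p = 0.498). For Fpr2 it was -1.03 with the length trend removed and -1.04 without TBX20fl/fl replicate 2. Cysltr1, a receptor of cysteinyl leukotrienes, had -0.60 ± 0.250 (edgeR, adjusted p = 0.498), and -0.36 without TBX20fl/fl replicate 2. Tbxa2r, the thromboxane receptor, was the gene on the other side, at 0.75 ± 0.329 (edgeR, adjusted p = 0.498), from 20 to 47 and 8 to 23 counts. With the replicate block Cysltr1 was -0.53 and Tbxa2r 0.69, neither at an unadjusted p under 0.05.

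**Figure D4:**
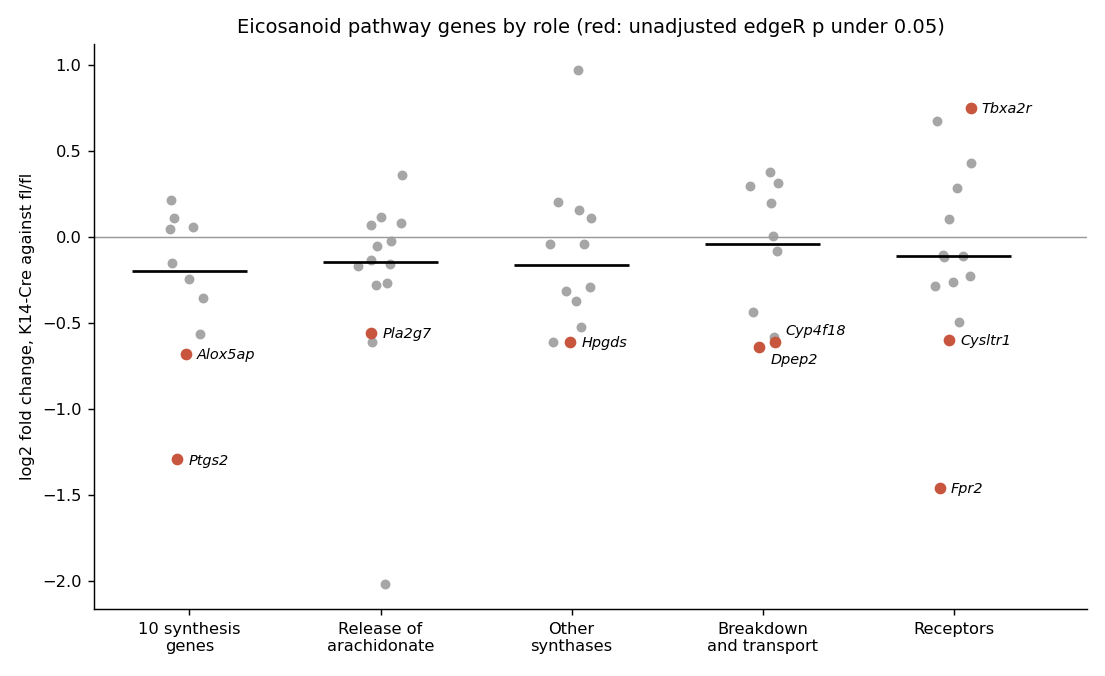
Log2 fold change (vertical axis, TBX20fl/fl;K14-Cre over TBX20fl/fl) of the 10 synthesis genes and of the 50 further pathway genes tested, in columns by role, where red points are at an unadjusted edgeR p under 0.05, black bars are medians and the grey line marks 0. Every role straddles 0, with medians from -0.16 to -0.037 for the further genes, and of the red points Fpr2 and Ptgs2 lie lowest, at -1.46 and -1.29, while the lowest grey point, at -2.01, is Pla2g4d with 0 to 19 counts.

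Markers of the leukocytes that carry these enzymes were read beside them. All 8 neutrophil markers had negative log2 fold changes, though that of Mmp9 was -0.0022. Their median was -1.32, or -1.11 with the length trend removed. Lower at an unadjusted edgeR p under 0.05 were 5 of 8, as were 5.91% of all genes tested. Their summed FPKM was 110, 219, 169 and 299 in cKO mice and 292, 923, 331 and 974 in controls, so the groups overlapped at 1 mouse of each. S100a8 and S100a9, which stressed keratinocytes also express, made up 73.9% to 92.9% of that sum. The other 6 markers summed to 28.8, 39.9, 35.2 and 58.1 FPKM against 55.7, 66.1, 45.6 and 69.4 FPKM, with overlap, and their median log2 fold change was -0.94, with 3 of 6 at an unadjusted edgeR p under 0.05. Of the defining markers, Ly6g gave 2 to 4 and 6 to 9 counts and Ngp 0 to 3 and 1 to 8 counts. Within cKO mice the order by the summed neutrophil markers, with or without S100a8 and S100a9, was that by Ptgs2 in CPM, from replicate 1 through 3 and 2 to 4. Within controls replicate 4 was the highest and replicate 2 next on both, and replicates 1 and 3 changed places in the sum of 8 but not in the sum of 6. In FPKM, the unit of the sums, Ptgs2 was higher in TBX20fl/fl replicate 1 (2.72) than in replicate 2 (2.51), so that order did not hold there. The part of neutrophils in the Ptgs2 values was not tested. Of the mast cell markers, 5 of 6 had negative log2 fold changes, with Kit at 0.31, and 3 were lower at an unadjusted p under 0.05. Their median of -0.56 became -0.10 with the length trend removed. Their summed FPKM of 482 to 540 and 587 to 874 did not overlap, with 874 in TBX20fl/fl replicate 2. Sums of FPKM keep the length trend, and how often sums of other genes fail to overlap was not computed. Mast cells express Ptgs2, Hpgds, Alox5 and Ltc4s, and their part in those values was not tested either.

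**Figure D5:**
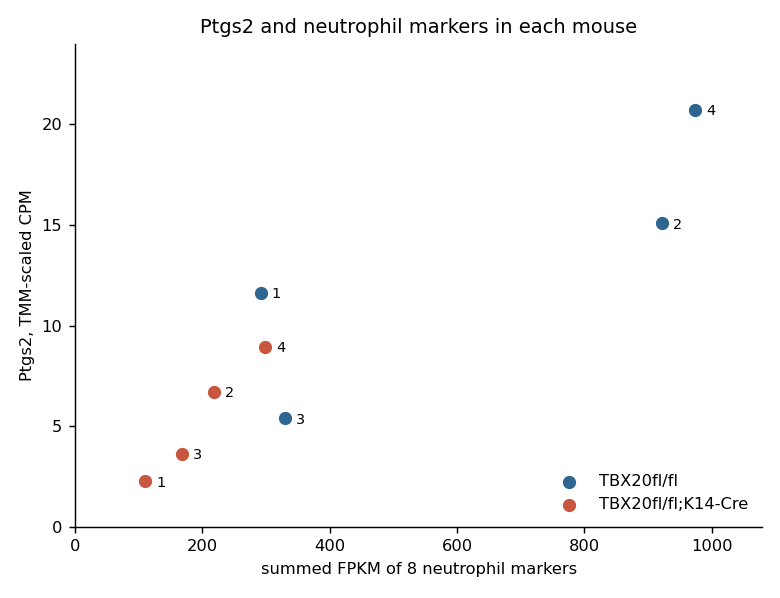
Ptgs2 (vertical axis, TMM-scaled CPM) against the summed FPKM of 8 neutrophil markers (horizontal axis, mostly S100a8 and S100a9), both on linear scales, with a numbered point for each of the 8 mice and colours for the genotypes. The mouse lowest on both axes is TBX20fl/fl;K14-Cre replicate 1, at 2.26 CPM and 110 FPKM, and the highest on both is TBX20fl/fl replicate 4, at 20.7 CPM and 974 FPKM.

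Macrophage markers, of which 1 of 8 was at an unadjusted edgeR p under 0.05, on the lower side, had a median log2 fold change of -0.08 and summed FPKM of 542 to 837 and 544 to 832. Of the 3 basophil markers, 2 had negative log2 fold changes at an unadjusted edgeR p under 0.05. The list had a median of -1.56 (-0.96 with the length trend removed). It summed to 2.20 to 4.80 and 6.15 to 14.3 FPKM without overlap, with 14.3 in TBX20fl/fl replicate 2. Of that sum 67.7% to 93.6% was Fcer1a, which mast cells also express, while Mcpt8, the defining marker, gave 0 to 2 and 1 to 8 counts and Prss34 had a log2 fold change of 0.11. Eosinophil markers, of which 3 of 3 tested had negative log2 fold changes and 1 an unadjusted p under 0.05, had a median of -0.68 and 4.20 to 7.21 and 5.73 to 10.5 FPKM, with Epx at no more than 3 counts in any mouse. Platelet markers, whose cells are a known source of Ptgs1 and Alox12 transcripts, had 83.7 to 111 and 76.8 to 165 FPKM, with Gp9 and Gp6 at no more than 3 counts. Most of that sum was Pf4, at 73.9 to 160 FPKM over all mice. Ppbp, Itga2b and Gp1ba reached at most 3.79, 1.93 and 0.66 FPKM, so the sum says little about the other platelet markers. The median log2 fold change of the platelet list was -0.44, with 4 of 5 tested negative and 2, Pf4 and Itga2b, at an unadjusted p under 0.05. The part of eosinophils and platelets in the members' values was not tested. Fibroblast, muscle, adipocyte and sebocyte markers had medians of 0.37, -0.11, -0.04 and -0.09, and 2 of 5 fibroblast markers, Col1a1 and Col1a2, were at an unadjusted p under 0.05 on the higher side. With the length trend removed these medians became -0.0070, 0.088, 0.27 and -0.09, and that of the macrophage markers became 0.057, so no direction is given for the fibroblast, muscle, adipocyte and macrophage lists. In all 11 lists, 0 markers passed after adjustment.

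The patterns of the pair of members with the smallest edgeR p were compared with those of every other gene tested, by Pearson's r of log2 CPM over the 8 mice, as a description. The nearest to Ptgs2 were Hdc (0.967), the histidine decarboxylase that makes histamine, Trem1 (0.961), a receptor of neutrophils and monocytes, and Cd300lf (0.961), an inhibitory receptor of myeloid cells. The nearest to Alox5ap were Pitpna (0.990), a phosphatidylinositol transfer protein, Dnajc25 (0.984) and the chemokine Ccl6 (0.982). These points share their libraries, and with 17123 genes compared over 8 mice, 1 of which stood apart, no test was made.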

How the data were processed

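Cheek skin RNA of 8 BNP-injected mice was sequenced on a DNA nanoball platform from poly(A)-selected libraries with 50-base reads. Per the study, low-quality reads were removed by SOAPnuke before alignment by HISAT, and the quantification program is not given in the sources used here. The deposited table holds, per gene and mouse, estimated counts (69.0% of those above 0 are not whole), FPKM values, TPM values and a normalised signal, each made by the authors, with RefSeq coordinates of GRCm38. TPM and the normalised signal were not used. The authors' own fold changes and p-values were not used. All per-sample columns matched a label. The estimate of a gene's count depends on how reads shared with overlapping genes were assigned, and FPKM also on the total and on transcript length.

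Estimated counts were rounded, a gene needed 10 counts or more summed over all mice, and the genotypes were compared with edgeR 4.0.16 (TMM, quasi-likelihood test, R 4.3.3), adjusting over all genes tested at 0.05. CPM values were scaled by TMM. FPKM and ratios of FPKM were compared by two-sided exact permutation tests over the mice (Python 3.11.15, scipy 1.17.1). Alternatives were DESeq2 1.42.0, its size factors, no low-count filter, limma 3.58.1 on log2(FPKM + 1) or log2(FPKM + 0.1) with and without a minimum mean FPKM of 0.1, a smooth length trend of each mouse as an offset, the replicate block, and each mouse left out. Scripts were tested on simulated data. Same-numbered mice of the genotypes deviated together (r = 0.323, 0.275, 0.176 and 0.108), so the numbers were taken as pairs on the data alone. Differently numbered mice gave -0.407 to 0.320, and 3 of those 12 values were above the lowest of the same-numbered ones, and the labels give no shared litter or day. Each library is 1 mouse.

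The 10 members and all gene lists were chosen with earlier results of these data known. Named were all members, further pathway genes at an unadjusted edgeR p under 0.05, the PGE2 receptors, and the 3 genes most like each of the 2 members with the smallest p. Other genes (Pla2g2f, Pla2g4a, Ptges3, Hpgd, Alox12b, Aloxe3, Alox12e) were picked for their roles or levels after the values were seen. Markers of keratinocytes, neutrophils, mast cells, basophils, eosinophils, macrophages, platelets, fibroblasts, muscle, adipocytes and sebocytes were read as lists. The parts of S100a8, S100a9 and Fcer1a in their lists were split off after the values were seen, and other single markers, such as Pf4, were then picked out too.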

Additional observations from a re-analysis of the deposited data

Results flagged for a closer look

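Ptgds in TBX20fl/fl;K14-Cre replicate 2 stood far from the rest of its group, at 6.32 FPKM against 1.30 to 1.67 in the other 3 mice. The gap to the nearest mouse was 0.926 of the group's whole range. It was the only such value among the 20 groups of 4 mice examined (10 genes in each genotype), and chance marks about 1 in 20.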

How the results depend on the processing

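No member and no further pathway gene passed after adjustment in any alternative. The count of genes called over the table was 0 in each edgeR and limma alternative and 10 with DESeq2, while leaving out each mouse gave 0 to 0. With the replicate number as a block (replicate block), the members' median log2 fold change was -0.23, and the block called no gene. It did take 2 receptor genes over the unadjusted threshold of 0.05, so that the further pathway genes under it went from 6 lower and 1 higher to 5 and 0. Of the members' log2 fold changes, 82 kept their direction under the other settings and 8 did not, and on leaving out a mouse 72 did and 8 did not. Ptgs1 went to -0.050 with the length trend removed and to -0.066 with the block and the trend. Ptgds went to -0.16 with the block and to -0.044 with limma on log2(FPKM + 0.1), Ltc4s to 0.013 with the block and the trend, and Lta4h to 0.035 (limma, pseudocount 1, with or without the filter) or 0.036 (pseudocount 0.1). The difference in Ptgds on log2(FPKM + 0.1) was also -0.044. Leaving out each mouse gave -0.024 to 0.18 for Ptgs1 (below 0 without TBX20fl/fl;K14-Cre replicate 3 or 4 or TBX20fl/fl replicate 2), -0.75 to 0.38 for Ptgds (below 0 without TBX20fl/fl;K14-Cre replicate 2 or TBX20fl/fl replicate 3 or 4), -0.0063 (without TBX20fl/fl;K14-Cre replicate 1) to 0.27 for Alox12, -0.51 to -0.076 for Alox15 and -0.24 to 0.0032 for Lta4h. It gave -1.65 to -0.98 for Ptgs2, -0.44 to -0.23 for Ptges, -0.85 to -0.48 for Alox5ap, -0.74 to -0.36 for Ltc4s and -0.30 to -0.10 for the members' median. For differences in mean FPKM it gave -0.767 to 0.907 for Ptgds, -1.46 to 0.18 for Alox15, -0.308 to 1.46 for Lta4h, -2.08 to -0.851 for Ptgs2 (the latter without TBX20fl/fl replicate 4), -3.64 to -0.778 for Ptges and -23.9 to -14.0 for Alox5ap. On limma's log2(FPKM + 1) scale Ptgs2 was -0.71 and Ptges -0.19. Leaving out each mouse from the ratios, added after the data were seen, gave log2 differences of -1.67 to -0.96 for Ptgs2 to Ptgs1, -0.31 to 0.098 for Ptges to Ptges3 (0.091, 0.098 and 0.071 without TBX20fl/fl;K14-Cre replicate 1, TBX20fl/fl replicate 1 and TBX20fl/fl replicate 4), -0.70 to -0.16 for Alox15 to Alox12 and -1.18 to -0.46 for Alox5ap to Alox5. Apart from the mouse or trend named, the cause was not tested. With limma on log2(FPKM + 0.1) the median of all genes moved by 0.15. The smallest adjusted p of a member was 0.306, for Ptgs2 with DESeq2. The counts of Ptgds and Ltc4s were low enough for counting error to matter.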
